A study of Rattus norvegicus with 19 samples.

Results

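The interferon-induced genes are transcripts that cells raise when interferon binds its receptors. They were chosen as 39 named genes, with each gene read from the probe set of that symbol with the highest mean over all arrays. Of the 39, 34 were measured, among 14217 genes with a representative probe set on the array. Ddx58, Xaf1, Samd9l, Gbp5 and Ifi47 had no probe set carrying that symbol alone and were not analysed here. Values are log2 signals, so a difference of 1 is a doubling.

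The samples were livers of Wistar Han rats, Crl:WI(Han), taken on postnatal day 4, hybridised to 19 Affymetrix Rat230_2 arrays. Dams had been gavaged with DE-71, a flame retardant mixture of pentabromodiphenyl ethers, in corn oil from gestation day 6 to postnatal day 4. The vehicle group received corn oil alone (0 mg/kg per day, 5 arrays), and the other groups 0.1 mg/kg per day (5 arrays), 15 mg/kg per day (4 arrays) and 50 mg/kg per day (5 arrays). All groups thus shared the gavage, the oil, the strain and the lobe sampled, the left lateral one. Nothing in the labels ties the arrays of a group to different animals or litters, and the p-values therefore reflect array-to-array spread that may be technical. The question of the design was which transcripts differed from vehicle at each dose.

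Type I interferons signal through JAK kinases to a complex that includes STAT2 and IRF9. That complex binds the interferon-stimulated response element, a DNA motif in the promoters of antiviral genes. Type II interferon acts on promoters that hold the gamma-activated site, and is known for raising guanylate-binding proteins, immunity-related GTPases and the parts of the cell that prepare peptides for MHC class I. In liver, hepatocytes and Kupffer cells both respond to interferons.

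Promoter windows of 300 bases (250 before and 50 after the start of transcription) from RefSeq, build GRCr8, matched 29 of the 34 members. No window was matched for Dhx58, Ifit2, Isg15, Mx2 and Usp18. The windows below are shown because their genes carry the dose pattern (Oas1a, Eif2ak2 and Irf7) or the pattern between arrays (Gbp2 and Igtp) described further on. Capitals mark the core of the interferon-stimulated response element, searched as GAAANNGAAA on both strands. Overlapping matches run together. Each is written 5′ to 3′ on the gene's own strand. The Oas1a window is chr12:41330216-41330515 on the plus strand, Eif2ak2 is chr6:21940904-21941203 on the plus strand, Irf7 is chr1:205799974-205800273 on the minus strand, Gbp2 is chr2:234005477-234005776 on the plus strand and Igtp is chr10:42874797-42875096 on the plus strand.
Oas1a: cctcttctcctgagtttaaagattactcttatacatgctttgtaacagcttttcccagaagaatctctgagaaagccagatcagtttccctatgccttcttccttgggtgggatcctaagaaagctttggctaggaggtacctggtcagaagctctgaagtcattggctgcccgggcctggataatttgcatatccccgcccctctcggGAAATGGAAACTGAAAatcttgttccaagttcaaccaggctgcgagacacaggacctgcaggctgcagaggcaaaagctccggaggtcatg
Eif2ak2: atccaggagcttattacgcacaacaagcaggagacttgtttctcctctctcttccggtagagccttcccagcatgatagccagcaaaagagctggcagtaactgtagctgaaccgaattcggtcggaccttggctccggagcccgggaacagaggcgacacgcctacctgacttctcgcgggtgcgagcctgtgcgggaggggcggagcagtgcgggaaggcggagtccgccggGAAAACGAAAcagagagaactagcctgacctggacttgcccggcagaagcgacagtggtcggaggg
Irf7: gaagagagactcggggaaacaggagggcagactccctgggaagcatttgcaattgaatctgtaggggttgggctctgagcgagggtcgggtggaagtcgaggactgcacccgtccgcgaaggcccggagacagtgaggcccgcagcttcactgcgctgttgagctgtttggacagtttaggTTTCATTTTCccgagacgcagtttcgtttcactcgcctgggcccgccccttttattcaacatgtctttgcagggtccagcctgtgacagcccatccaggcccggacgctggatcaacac
Gbp2: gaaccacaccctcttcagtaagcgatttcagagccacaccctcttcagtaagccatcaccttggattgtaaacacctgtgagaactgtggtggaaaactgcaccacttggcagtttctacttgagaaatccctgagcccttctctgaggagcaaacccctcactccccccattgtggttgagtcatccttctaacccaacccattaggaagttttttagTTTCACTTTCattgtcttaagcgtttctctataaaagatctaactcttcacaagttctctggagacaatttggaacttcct
Igtp: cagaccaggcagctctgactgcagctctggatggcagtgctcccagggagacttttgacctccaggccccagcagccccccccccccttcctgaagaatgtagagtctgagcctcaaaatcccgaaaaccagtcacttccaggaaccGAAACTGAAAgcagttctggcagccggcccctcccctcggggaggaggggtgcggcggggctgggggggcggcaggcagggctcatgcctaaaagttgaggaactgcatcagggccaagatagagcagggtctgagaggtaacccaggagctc

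In Oas1a the core occurred at 2 overlapping positions, GAAATGGAAA from -41 to -32 and GAAACTGAAA from -35 to -26, counted from the start of transcription at 0. Eif2ak2 held GAAAACGAAA from -16 to -7. Irf7 and Gbp2 held the core on the other strand, read along the gene as TTTCATTTTC from -69 to -60 and as TTTCACTTTC from -31 to -22. Igtp held GAAACTGAAA from -103 to -94, and beside it the core of the gamma-activated site, searched as TTCNNNGAA, as TTCCAGGAA from -114 to -106.

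The response element core was present in 21 of the 29 windows (72.4%), against 1312 of 33469 RefSeq promoters of the same length (3.92%). Its 27 matches lay on the gene's strand in 17 cases and on the other in 10. In 20 members a match began within 200 bases before the start. The gamma-activated site core was present in 9 members (31.0%), against 2970 of all promoters (8.87%), and 7 members held both. The 8 members without the response element core were Herc6, Irf1, Irf9, Mx1, Oasl, Psmb9, Stat2 and Trim25, of which Irf1 and Irf9 held the gamma-activated site core. The windows of Tap1 and Psmb9, which are neighbours on chromosome 20, overlap. These matches describe letters in a window and are not measured binding sites.

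**Figure D1:**
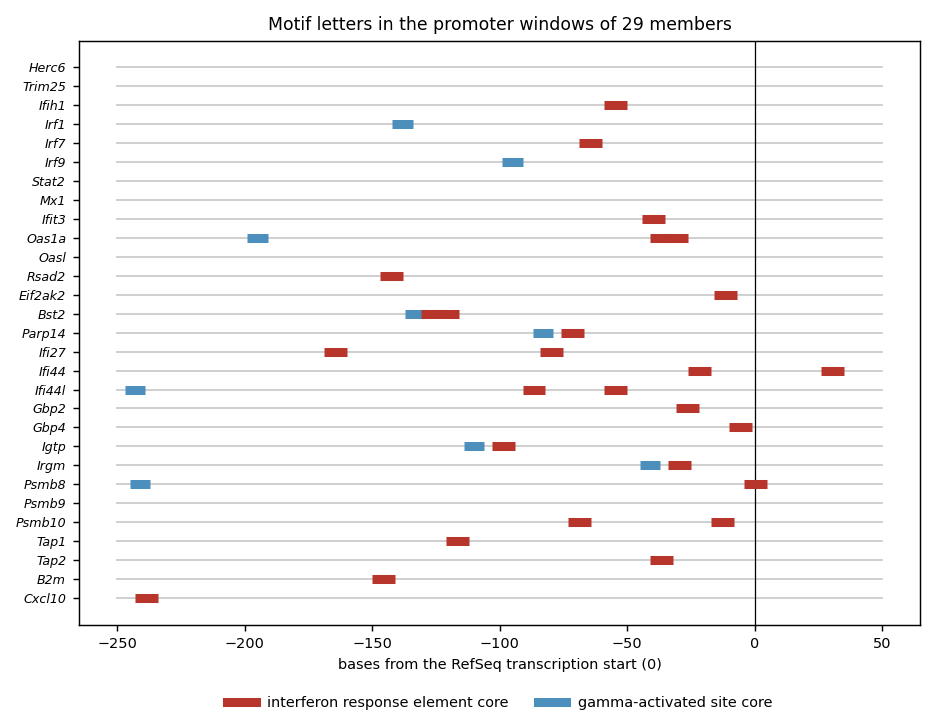
Matches to the cores of the interferon-stimulated response element (red) and the gamma-activated site (blue) in the promoter windows of 29 members, by distance in bases from the RefSeq transcription start (vertical line at 0). Red matches appear in 21 of the 29 windows and most of them stand within 200 bases before the start.

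Some arrays stood apart. Vehicle replicate 2 and 0.1 mg/kg replicate 2 had the highest correlation of all 171 pairs of arrays (0.9986, next 0.9966) and differed over the members by a median of 0.0653, against 0.2511 to 0.687 between either of them and the 17 other arrays. Cyp1a1, the readout of exposure through the aryl hydrocarbon receptor, was 7.10 to 8.36 on vehicle arrays and 13.16 to 14.30 at 15 and 50 mg/kg. The library labelled 0.1 mg/kg replicate 1 read 14.06, against 7.19 to 8.42 on the others of its group. Skeletal muscle transcripts averaged 4.32 to 12.35 over the arrays and exocrine pancreas transcripts 5.15 to 8.51, while hepatocyte transcripts held at 14.47 to 14.55 on all 19. The labelled sex is female, with no word on which animal is meant. The Y-linked genes Eif2s3y and Uty read 9.55 to 10.07 and 9.46 to 10.03 over the 19 arrays, and the X-linked transcript Xist 3.88 to 4.29. Such Y-linked signal is at odds with RNA from females. Afp, a fetal liver protein, read 14.47 to 14.70. Array numbers in the labels run from 1 to 20, and what they stand for is not stated. The 7 arrays with low numbers (1 to 8, called early here, the 12 others late) include 4 of the 5 arrays at 50 mg/kg and 1 of each other group. Early and late stand only for low and high numbers, not for a known order in time or a known batch.

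At 50 mg/kg, 4 of the 34 members rose, 0 fell and 30 did not pass (limma, adjusted p under 0.05). This is 11.8% of the members, against 1.79% of all genes called higher and 0.443% called lower. The risers were Usp18 and Isg15 of the ISG15 system and the antiviral enzymes Oas1a and Eif2ak2. The difference from vehicle was above 0 in 31 of the 34 members (91.2%), against 51.5% of all genes, with a median of 0.29 against 0.0058. At an unadjusted p under 0.05, 17 members were higher (50.0%, against 11.0% of all genes) and 0 were lower (6.31% of all genes). All 5 arrays at 50 mg/kg lay above all 5 vehicle arrays in 8 members (23.5%, against 4.35% of all genes), namely Usp18, Isg15, Cxcl10, Dhx58, Irgm, Ifi44, Parp14 and Eif2ak2. In 0 members did they all lie below (1.48% of all genes). Without replicate 5 at 50 mg/kg, 14 members were wholly above (41.2%, against 5.31% of all genes) and 1, Trim25, wholly below (2.94% against 2.65%). Leaving out an array can only keep or raise such counts. In bulk liver RNA, fewer or more cells of a type and less or more RNA per cell cannot be told apart.

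The number of members called changed with the array number as a term. With a block for early and late arrays, 0 of the 34 members passed, and in an added fit without vehicle replicate 2 and 0.1 mg/kg replicate 2, which was chosen after seeing the data, only Usp18 did. Without any single array of the 2 groups, between 1 and 6 members passed, and Usp18 passed in each of those fits. It was the only one left without vehicle replicate 1, 2 or 4, or without replicate 2, 3 or 4 at 50 mg/kg, and 2 members passed without vehicle replicate 5 or replicate 1 at 50 mg/kg. Shares of all genes called in the fits with a block or with arrays left out are not given here. The changes in count may therefore not be particular to the members. Within the early arrays the comparison rests on 1 vehicle array, replicate 1, which has the highest muscle signal of all, and within the late arrays on 1 array at 50 mg/kg, replicate 5. Both were low for the members. Vehicle replicate 1 averaged 7.10 over them, against 6.98 on vehicle replicate 2 and 7.26 to 7.37 on vehicle replicates 3 to 5. Replicate 5 at 50 mg/kg averaged 7.36, against 7.40 to 7.68 on the others of its group. In 23 of 34 members (67.6%, against 34.0% of all genes) 50 mg/kg was above vehicle within both the early and the late arrays, and in 0 it was below in both (24.7% of all genes).

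**Figure D2:**
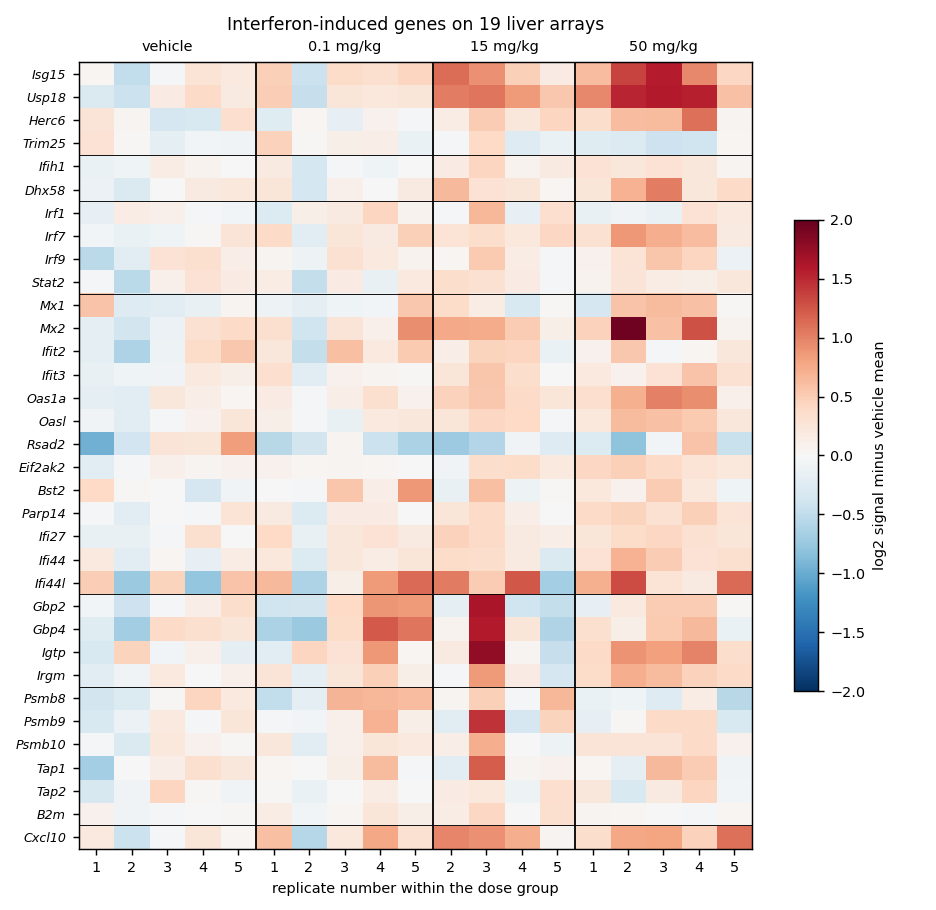
Difference of each of 34 members (rows, grouped by role) from its vehicle mean, in log2 units, on each of 19 arrays (columns, by dose group and replicate number). Isg15 and Usp18 are red on all 9 arrays at 15 and 50 mg/kg, the GTPases and Psmb9 are most red on 15 mg/kg replicate 3, and vehicle and 0.1 mg/kg replicates 2 look alike.

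The ISG15 system attaches the ubiquitin-like protein ISG15 to other proteins and takes it off again. Usp18 (chromosome 4, 156143770 to 156171292 in GRCr8), the protease that removes ISG15 and also damps the type I receptor, read 5.63, 5.49, 6.08, 6.31 and 6.11 on the vehicle arrays and 6.88, 7.44, 7.52, 7.48 and 6.51 at 50 mg/kg. It read 6.42, 5.45, 6.17, 6.13 and 6.16 at 0.1 mg/kg and 6.95, 6.99, 6.78 and 6.46 at 15 mg/kg. Every array at 15 and 50 mg/kg stood above every vehicle array, and replicate 5 was the lowest of both upper groups. Means ± SD were 5.92 ± 0.347 for vehicle (n = 5), 6.79 ± 0.241 at 15 mg/kg (n = 4) and 7.17 ± 0.449 at 50 mg/kg (n = 5). At 50 mg/kg Usp18 rose 2.37-fold (1.24, SE 0.215, limma adjusted p = 0.00721), the largest difference among the members. Blocking on early and late arrays, the difference was 1.08 with adjusted p = 0.0752, and it was 1.70 within early and 0.52 within late arrays.

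Isg15 (chromosome 5, 172066369 to 172067656 in GRCr8), the modifier itself, read 6.30, 5.77, 6.23, 6.54 and 6.46 on the vehicle arrays and 6.88, 7.62, 7.84, 7.23 and 6.68 at 50 mg/kg. The 0.1 mg/kg arrays read 6.73, 5.84, 6.62, 6.58 and 6.68, and the 15 mg/kg arrays 7.37, 7.17, 6.73 and 6.43. The groups at 0 and 50 mg/kg did not overlap, whereas 1 of the 4 arrays at 15 mg/kg fell among the vehicle values. At 50 mg/kg Isg15 rose 1.98-fold (0.99, SE 0.236, limma adjusted p = 0.0423), and the early and late block gave 0.74 with adjusted p = 0.241. It passed in 9 of the 27 alternative fits, against 25 of 27 for Usp18.

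The ligases of the system did not pass. Herc6, which joins ISG15 to its targets in rodents, read 4.92, 4.71, 4.32, 4.35 and 4.99 on the vehicle arrays and 5.00, 5.27, 5.29, 5.76 and 4.72 at 50 mg/kg (0.55, SE 0.165, limma adjusted p = 0.105). Only replicate 5 at 50 mg/kg lay within the vehicle range. Trim25, a ligase that acts on the RNA sensor RIG-I, had the lowest difference of all members at 50 mg/kg (-0.26, SE 0.130, limma adjusted p = 0.354). Its vehicle arrays read 9.50 to 9.98 and 4 of the 5 arrays at 50 mg/kg lay below all of them, at 9.28 to 9.46.

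The RNA sensors were represented by Ifih1 and Dhx58, which recognise double-stranded viral RNA. Neither passed. Dhx58 read 4.83, 4.66, 4.95, 5.13 and 5.15 on the vehicle arrays and 5.19, 5.63, 5.97, 5.17 and 5.33 at 50 mg/kg, with no overlap by a narrow margin (0.52, SE 0.160, limma adjusted p = 0.116). Its other 2 probe sets differed by 0.61 and 0.36. Ifih1 read 6.07 to 6.36 on the vehicle arrays and 6.26 to 6.49 at 50 mg/kg, where 4 of 5 arrays lay above all vehicle values (0.22, SE 0.0927, limma adjusted p = 0.262).

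Among the transcription factors, 0 of 4 passed at 50 mg/kg and 1 of 4 had an unadjusted p under 0.05. That was Irf7, the factor that amplifies type I interferon production. It read 7.03, 6.96, 7.01, 7.11 and 7.35 on the vehicle arrays and 7.40, 7.95, 7.82, 7.71 and 7.27 at 50 mg/kg. Replicate 5 was the only array at 50 mg/kg within the vehicle range. The difference was 0.54 (SE 0.135, limma adjusted p = 0.0533). Irf9, the DNA-binding part of the type I complex, differed by 0.24 (SE 0.161, limma adjusted p = 0.490), and its partner Stat2 by 0.16 (SE 0.144, limma adjusted p = 0.616). Irf1, a factor of the type II response, read 8.55 ± 0.129 on vehicle and 8.57 ± 0.2 at 50 mg/kg (SD, n = 5 each).

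The antiviral effectors were the largest group, with 13 of 15 measured, and 2 of the 13 rose. Oas1a makes the short oligoadenylates that switch on RNase L. It read 4.83, 4.77, 5.22, 5.14 and 5.04 on the vehicle arrays, 5.46, 5.53, 5.37 and 5.24 at 15 mg/kg and 5.33, 5.71, 6.00, 5.92 and 5.10 at 50 mg/kg. All 4 arrays at 15 mg/kg stood above the vehicle range, as did 4 of 5 at 50 mg/kg. The rise at 50 mg/kg was 1.53-fold (0.61, SE 0.145, limma adjusted p = 0.0402). With the early and late block it was 0.53 with adjusted p = 0.209, with 0.92 within early and 0.06 within late arrays.

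Eif2ak2 is PKR, the kinase that halts translation when it binds double-stranded RNA. It read 7.46, 7.63, 7.77, 7.72 and 7.76 on the vehicle arrays and 8.08, 8.14, 8.04, 7.94 and 7.88 at 50 mg/kg. The 0.1 mg/kg arrays lay close together at 7.67 to 7.76 and the 15 mg/kg arrays at 7.60, 8.02, 8.03 and 7.87. All arrays at 50 mg/kg stood above all vehicle arrays, although the rise was the smallest of the 4 called members at 1.27-fold (0.35, SE 0.0823, limma adjusted p = 0.0402). The block gave 0.41 with adjusted p = 0.0816, and the difference was 0.59 within early and 0.16 within late arrays.

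The other 11 effectors did not pass at 50 mg/kg. Mx2, a dynamin-like GTPase that traps viral particles, had a larger difference than Oas1a, of 0.86, with a wider error (SE 0.296, limma adjusted p = 0.158). Its arrays at 50 mg/kg ran from 5.27 to 7.14 around a median of 5.78, against 4.83 to 5.59 for vehicle. Ifi44l differed by 0.72 (SE 0.402, limma adjusted p = 0.405) and was spread in every group, from 5.54 to 6.87 on the vehicle arrays and from 6.48 to 7.61 at 50 mg/kg. Parp14, a mono-ADP-ribosyltransferase, was tightly grouped at 7.77 to 8.276 on vehicle and 8.281 to 8.48 at 50 mg/kg (0.38, SE 0.101, limma adjusted p = 0.0692). These groups did not overlap, but only by a narrow margin. Oasl differed by 0.44 (limma adjusted p = 0.0623), Ifi44 by 0.42 (limma adjusted p = 0.127) and Ifi27 by 0.31 (limma adjusted p = 0.148). Rsad2, or viperin, was the only effector below vehicle (-0.20, limma adjusted p = 0.768), and its vehicle arrays alone ran from 9.55 to 11.36. Its difference was 0.82 within early and -0.68 within late arrays, and 0.03 with the early and late block.

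**Figure D3:**
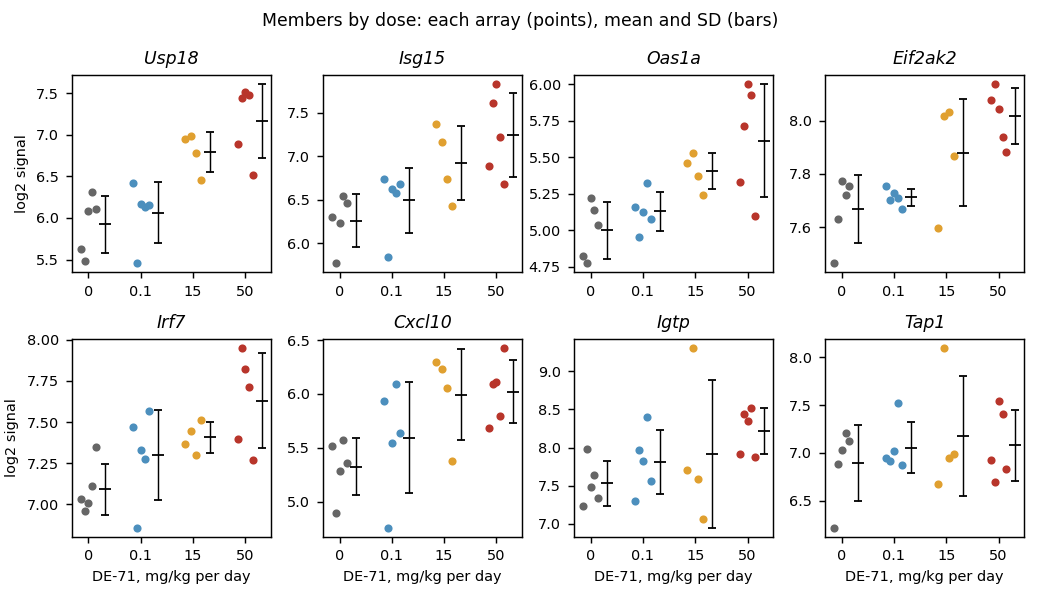
Log2 signal of 8 members by daily dose of DE-71 in mg/kg, the doses set at even distances, with 1 point per array and a bar for the mean ± SD of each group (n = 5, 5, 4 and 5). Usp18 arrays at 15 and 50 mg/kg all lie above the vehicle arrays, while single high arrays stand out in Igtp and Tap1 at 15 mg/kg (9.31 and 8.10).

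The interferon-induced GTPases act on the membranes around intracellular pathogens. At 50 mg/kg 0 of 4 passed and all 4 differences were above 0. Igtp read 7.23, 7.97, 7.48, 7.64 and 7.33 on the vehicle arrays and 7.92, 8.44, 8.35, 8.52 and 7.88 at 50 mg/kg (0.69, SE 0.310, limma adjusted p = 0.298). The 2 groups overlapped through vehicle replicate 2. Irgm read 7.40 to 7.80 on vehicle and 7.97 to 8.34 at 50 mg/kg, with no overlap (0.52, SE 0.168, limma adjusted p = 0.136). Gbp4 and Gbp2 differed by 0.29 and 0.22, less than their standard errors of 0.405 and 0.346.

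Antigen processing, which covers the immunoproteasome subunits, the peptide transporter and the MHC class I light chain, was the group nearest to vehicle at 50 mg/kg. Of its 6 members 0 passed, 0 had an unadjusted p under 0.05 and the median difference was 0.08. Psmb10, an immunoproteasome subunit, differed by 0.25 (SE 0.134, limma adjusted p = 0.386). Tap1, which pairs with Tap2 in the peptide transporter, differed by 0.19 (SE 0.248, limma adjusted p = 0.754), and its other probe set by -0.03. Psmb8 lay below vehicle, by -0.18 (SE 0.229, limma adjusted p = 0.746). B2m, the light chain, read 13.28 ± 0.057 on vehicle and 13.30 ± 0.0328 at 50 mg/kg (SD, n = 5 each).

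Cxcl10, the chemokine that draws activated T cells, read 5.52, 4.89, 5.28, 5.57 and 5.36 on the vehicle arrays and 5.68, 6.10, 6.11, 5.79 and 6.43 at 50 mg/kg. The groups did not overlap, but the difference of 0.70 did not pass (SE 0.228, limma adjusted p = 0.137). Its late array at 50 mg/kg, replicate 5, was the highest of the group, with a difference of 0.40 within early and 1.15 within late arrays.

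At 15 mg/kg, 0 of the 34 members passed, and neither did any of the 14217 genes (0 called higher and 0 lower by limma). The differences pointed the same way as at 50 mg/kg in most members. They were above 0 in 32 of 34 (94.1%, against 49.5% of all genes), with a median of 0.24 against -0.0025. At an unadjusted p under 0.05, 11 members were higher (32.4%, against 6.12% of all genes) and 0 lower (3.81% of all genes). Both upper doses share the same 5 vehicle arrays, so these counts are not independent of those at 50 mg/kg. Some lists of immune cell markers moved with the members at 15 mg/kg and others did not. T and NK cell markers were above 0 in 12 of 13 (median 0.31), with 6 higher at an unadjusted p under 0.05. Dendritic cell and MHC class II markers were above 0 in 5 of 7 (median 0.63), with 3 higher at that p and 2 without overlap, and 0 of either list passed. Pan-leukocyte markers were below 0 in 5 of 6 (median -0.12), neutrophil markers in 6 of 6 (median -0.22) and Kupffer cell and macrophage markers in 5 of 9 (median -0.07). The 3 measured B cell markers were above 0 (median 0.09). The part of these cells in the member differences was not tested.

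Usp18 again had the largest difference at 15 mg/kg, 0.87 (SE 0.228, 95% interval 0.39 to 1.35, limma adjusted p = 0.427), or 1.83-fold. Usp18 and Oas1a (0.40, limma adjusted p = 0.449) were the 2 members whose 15 mg/kg and vehicle arrays did not overlap, which is 5.88% of the members against 1.98% of all genes. In 0 members did the arrays lie wholly below (1.39% of all genes). The count of 2 became 8 without replicate 5 at 15 mg/kg (23.5%, against 5.56% of all genes), 5 without replicate 4 (14.7% against 3.12%) and 4 without vehicle replicate 5 (11.8% against 2.63%). Leaving out an array cannot lower this count. Cxcl10 and Isg15 both differed by 0.67 (limma adjusted p = 0.448 for each). Cxcl10 read 6.30, 6.24, 6.06 and 5.38 on these arrays, of which only replicate 5 lay within the vehicle range. B2m differed by 0.22 (unadjusted p = 0.0108, limma adjusted p = 0.439), which is more than at 50 mg/kg. Rsad2 was lower than vehicle here too, by -0.41 (limma adjusted p = 0.643).

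At 0.1 mg/kg, 0 of 34 members passed, with or without the library labelled replicate 1. With all arrays, 0 of the 14217 genes were called higher and 0 lower by limma. In either direction 0 members had an unadjusted p under 0.05, where 1.33% of all genes were higher and 0.647% lower by that measure. Member differences ran from -0.38 for Rsad2 to 0.43 for Ifi44l with a median of 0.12. They were above 0 in 30 of 34 (88.2%, against 55.0% of all genes), a count that includes the library labelled replicate 1. The 95% interval of the Usp18 difference at this dose was -0.31 to 0.59 and that of Isg15 was -0.27 to 0.73. Both overlap the intervals at 15 mg/kg, 0.39 to 1.35 for Usp18 and 0.14 to 1.19 for Isg15. The difference between 0.1 and 15 mg/kg was not tested. In 0 members were all 5 arrays above all vehicle arrays (0.106% of all genes), and in 0 were they all below (0.0281%).

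The 2 upper doses were also compared directly, and 0 of 34 members passed, as did 0 of all genes. Of the members 23 were above and 10 below the 15 mg/kg mean, with a median of 0.085 against 0.0099 over all genes. Usp18 was higher by 0.37 (95% interval -0.10 to 0.85, limma adjusted p = 0.750) and Isg15 by 0.32 (-0.20 to 0.85, limma adjusted p = 0.834). In antigen processing 5 of 6 members were lower at 50 than at 15 mg/kg, among them Psmb8 (-0.46, limma adjusted p = 0.683) and B2m (-0.20, unadjusted p = 0.0217, limma adjusted p = 0.573). B2m was the only member with an unadjusted p under 0.05 in this comparison, where 5.34% of all genes were higher and 3.01% lower by that measure. In 0 members did the arrays of the 2 doses not overlap, against 2.44% of all genes wholly higher and 1.03% wholly lower at 50 mg/kg.

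Across the 4 groups, the means of 18 members rose at every dose step (52.9%, against 10.4% of all genes), and 0 fell at every step (8.72%). The 18 were Isg15, Usp18, Dhx58, Irf7, Irf9, Mx1, Mx2, Ifit3, Oas1a, Oasl, Eif2ak2, Parp14, Ifi27, Ifi44, Ifi44l, Igtp, Psmb10 and Cxcl10. Usp18 went from 5.92 to 6.07, 6.79 and 7.17, and Irf7 from 7.09 to 7.30, 7.41 and 7.63. Neighbouring doses did not differ at the threshold in any of the steps tested, which were 0.1 mg/kg against vehicle and 50 against 15 mg/kg. The 0.1 mg/kg means include the library labelled replicate 1, whose Cyp1a1 read 14.06. That library was the highest of its group in 9 of the 34 members and the lowest in 5. Counts of steps without it are not given here.

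**Figure D4:**
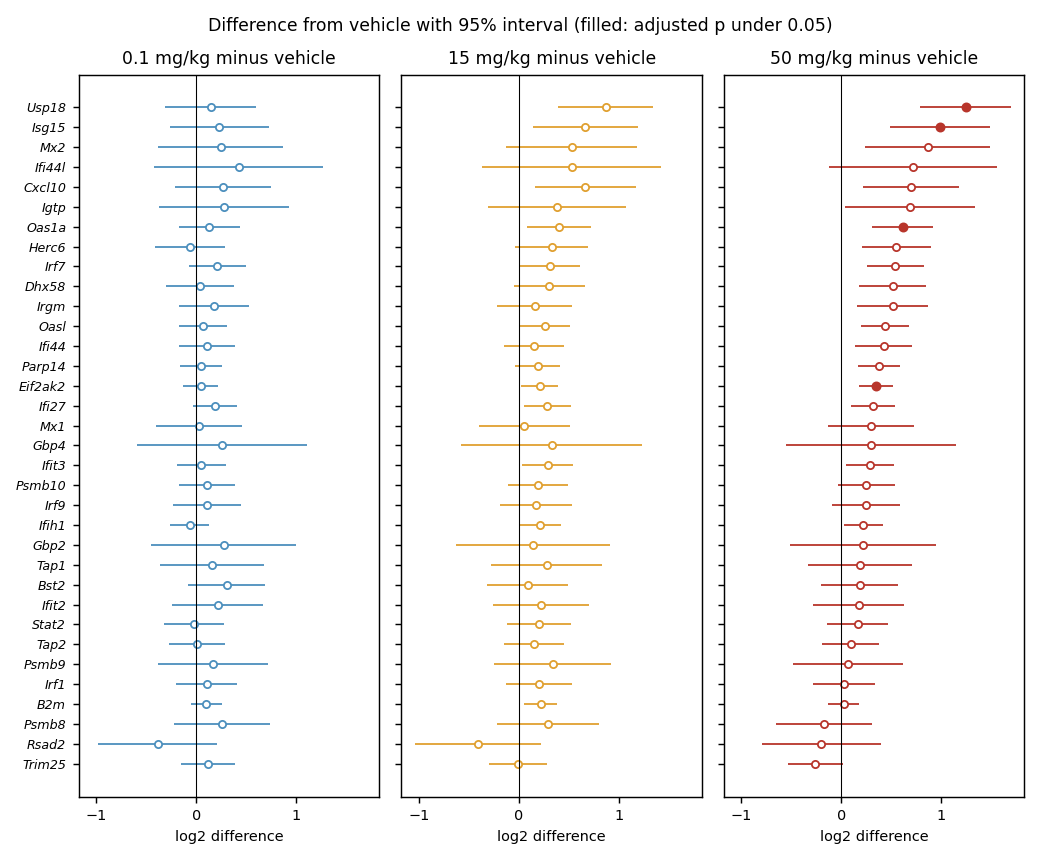
Log2 difference from vehicle (points) with 95% intervals (lines) of 34 members at 0.1, 15 and 50 mg/kg, ordered by the difference at 50 mg/kg. Filled points mark the 4 members with an adjusted p under 0.05, all at 50 mg/kg (Usp18, Isg15, Oas1a and Eif2ak2).

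The members varied more between arrays of a group than most genes did. Their within-group SD had a median of 0.27, against 0.171 over all genes, and 29 of the 34 lay above that value. It was lowest in B2m (0.1065) and highest in Gbp4 (0.6933), Ifi44l (0.688), Gbp2 (0.5914) and Igtp (0.5287). At 15 mg/kg, replicate 3 was the highest of its 4 arrays in 20 of 34 members (58.8%, against 24.4% of all genes) and the lowest in 0.

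All 4 GTPases and 4 of the 6 antigen processing genes were highest on that array, while Psmb8 and Tap2 were highest on replicate 5. Gbp2 read 9.29 on 15 mg/kg replicate 3 against 7.18 to 7.47 on the others of the group, and Igtp 9.31 against 7.07 to 7.71. Gbp4 read 6.72 against 4.52 to 5.37, Psmb9 9.06 against 7.28 to 8.05 and Tap1 8.10 against 6.67 to 6.99. On the mean of the 4 GTPases the array stood at 8.44 against 6.51 to 7.00. Usp18 and Isg15 were not set apart there, at 6.99 against 6.46 to 6.95 and at 7.17 against 6.43 to 7.37.

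Immune cell markers moved with that array. Its mean of 7 measured dendritic cell and MHC class II markers was 8.16 against 6.55 to 7.23 on the other arrays at 15 mg/kg, with 6 of the 7 at their highest. Pan-leukocyte markers stood at 9.48 against at most 9.03 (6 of 6 highest) and Kupffer cell and macrophage markers at 10.43 against 9.65 to 9.98 (9 of 9 highest). Their part in the GTPase levels was not tested. At 0.1 mg/kg, replicate 4 was highest in all 4 GTPases (mean 7.84 against 6.73 to 7.50) and in 5 of the 6 antigen processing genes, and its dendritic cell and class II mean was 7.71 against 6.50 to 7.03.

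**Figure D5:**
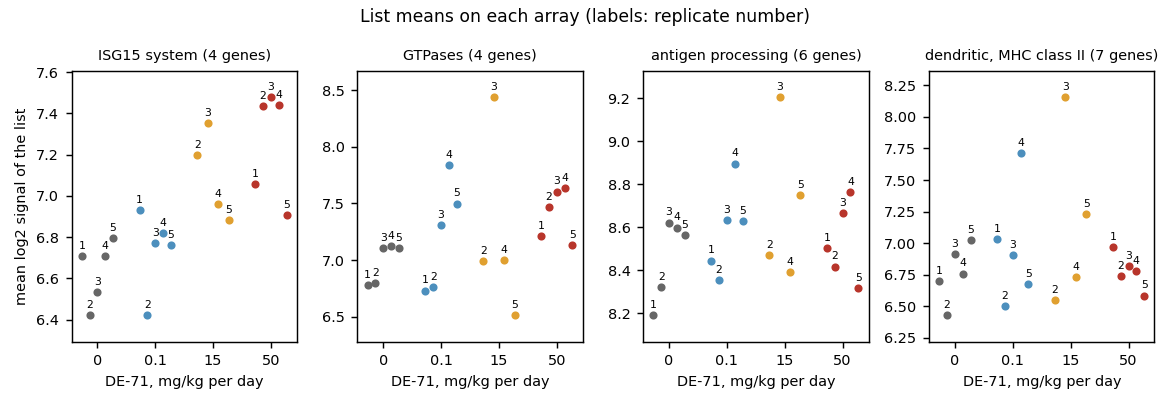
Mean log2 signal per array of the ISG15 system, the GTPases, antigen processing and the dendritic cell and MHC class II markers, by dose in mg/kg per day (doses at even distances), with the replicate number at each point. In the last 3 panels replicate 3 of 15 mg/kg and replicate 4 of 0.1 mg/kg stand highest in their groups, and in the first the 50 mg/kg replicates 2, 3 and 4 lie above all other arrays.

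Other arrays were low. Vehicle replicate 2 was the lowest of its group in 18 of 34 members (52.9%, against 4263 of the 14217 genes) and 0.1 mg/kg replicate 2 in 24 (70.6%, against 38.9% of all genes), the pair that also read alike over all genes and carried equal pancreas signal (8.51 on each). By its mean over the members (7.10), vehicle replicate 1, the early array of the group, came next after vehicle replicate 2. At 15 mg/kg, replicate 5 was lowest in 20 members (58.8% against 35.1%), and its pancreas mean was 7.92. At 50 mg/kg, replicate 5, the late array of the group, was lowest in 17 (50.0% against 16.4%). The part of these signals in the member levels was not tested. With muscle and pancreas means as covariates 1 member, Usp18, passed at 50 mg/kg, and the share of all genes in that fit is not given here.

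At 50 mg/kg 0 markers of the leukocyte lists rose, and 1 fell, the neutrophil granule gene Camp (-0.94, limma adjusted p = 0.0457). Of the 6 measured neutrophil markers 5 were below 0 (median -0.41), 3 of them at an unadjusted p under 0.05. All 6 pan-leukocyte markers had differences below 0 (median -0.25, 0 passed), as did 8 of 9 Kupffer cell and macrophage markers (median -0.12, 0 passed). With the pan-leukocyte mean as a covariate 8 members passed, the 4 above with Irf7, Irgm, Oasl and Parp14. The share of all genes that passed in that fit is not given here, so this count is not set against it. T and NK cell markers were above 0 in 12 of 13 (median 0.15, 0 passed). The dendritic cell and class II markers averaged 6.43 to 7.02 on vehicle arrays and 6.59 to 6.97 at 50 mg/kg (0 of 7 passed). Outside the leukocytes, 8 of 8 stellate cell markers were below 0 (median -0.53, 1 lower at an unadjusted p under 0.05) and 5 of 6 endothelial markers (median -0.14, 2 lower at that p), with 0 passed in either list. The part of these cells in the member differences was not tested. The leukocyte covariate is a mean from the same bulk arrays, which cannot tell cell numbers from RNA per cell, and does not test it.

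The rest of the pathway was followed in lists of other genes. Of interferons and their receptors 9 of 13 were measured and 0 passed by limma at any dose (1 higher and 0 lower at an unadjusted p under 0.05 at 50 mg/kg). Ifnar2 differed by 0.37 (limma adjusted p = 0.325) and Ifnar1 by -0.17 (limma adjusted p = 0.596) at 50 mg/kg. Of the kinases, STATs and feedback inhibitors 10 of 11 were measured and 0 passed (1 higher and 1 lower at an unadjusted p under 0.05), with Stat3 at -0.54 (limma adjusted p = 0.330) and the kinase Tyk2 at -0.39 (limma adjusted p = 0.131). Of the genes that lead to interferon production 15 of 19 were measured and 0 passed (0 at an unadjusted p under 0.05), with a median difference of 0.03.

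A list of 52 other interferon-induced genes, which holds none of the members, had 40 measured, and 0 of them passed at 50 mg/kg. Of these 31 were above 0 (77.5%, against 51.5% of all genes) with a median of 0.20, 14 were higher at an unadjusted p under 0.05 (35.0% against 11.0%) and 10 had arrays wholly above the vehicle arrays (25.0% against 4.35%). The largest differences were those of Rtp4, a chaperone of receptor transport (0.86, limma adjusted p = 0.0593), and Slfn3 (0.73, limma adjusted p = 0.391).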

How the data were processed

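Liver RNA was measured on 19 Affymetrix Rat230_2 arrays in 4 dose groups. The values are log2 signals deposited by the authors, and per the submitters' processing notes they were made with RMA, which corrects background, normalizes by quantiles and summarizes probes. The release of RMA was not given in the sources used here. Quantile normalization gives arrays like totals, and low signals lie near background, where differences are compressed. Array medians were 6.0563 to 6.1649. The number of arrays limits the precision.

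Tests ran on 31042 probe sets, after leaving out 57 controls. Of them 20826 had 1 symbol in the platform annotation, 436 had several and 9780 none, and 20758 of the first matched RefSeq by gene ID. A gene is its probe set with the highest mean, and probe sets with several symbols named no gene. One mean per dose group was fitted over all 19 arrays with limma 3.58.1 in R 4.3.3 (15 residual and 2.78 prior degrees of freedom). Tests are two-sided, adjusted by Benjamini-Hochberg across every probe set tested in that comparison, and the threshold was 0.05. The fit was tested on simulated data. Percentages of all genes are over the 14217 representative probe sets.

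The members and lists were chosen with earlier results of these data known. Members that passed in any comparison, and up to 3 per role with the largest difference at 50 mg/kg, were named in full, and the others named by their values afterwards. Alternatives covered the filter, the variance prior, normalization, array weights, blocks, covariates, the probe set rule and arrays left out. Promoters came from RefSeq GRCr8.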

Additional observations from a re-analysis of the deposited data

Results flagged for a closer look

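Single arrays far from the rest of their group were looked for in 136 groups (34 members in 4 dose groups) by the gap to the nearest array over the group's range, and 7 were found (5.15%), where chance gives about 1 in 20. Isg15 read 5.84 on 0.1 mg/kg replicate 2, against 6.58 to 6.73 on the others of the group. Ifi44 read 5.43 on the same array, against 5.84 to 5.94. Psmb9 read 8.30 and Tap1 7.53 on 0.1 mg/kg replicate 4, against 7.56 to 7.72 and 6.88 to 7.02. Mx1, a GTPase that blocks viral replication, read 4.95 on 0.1 mg/kg replicate 5, against 4.24 to 4.35. Gbp2 read 9.29 on 15 mg/kg replicate 3, against 7.18 to 7.47. Ifih1 read 6.26 on 50 mg/kg replicate 5, against 6.44 to 6.49.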

How the results depend on the processing

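The number of members called at 50 mg/kg, 4 as reported, was 2 without variance shrinkage, 2 with only the 2 groups compared (Irgm and Usp18), 2 with a replicate block (Oas1a and Usp18), 1 with the array number as a covariate, 0 with the early and late block, 0 with that block and 3 arrays left out, 1 with muscle and pancreas scores, 7 with array weights, 7 with a gene's probe sets averaged, 8 with the leukocyte score and 7 at a threshold of 0.1. In fits chosen after seeing the data it was 1 without vehicle and 0.1 mg/kg replicates 2, and 1 without these and 0.1 mg/kg replicate 1. It was 1 to 6 with 1 array left out. A filter on low values and cyclic loess gave 6 each. Shares of all genes called under these settings are not given here, so a higher count may not be particular to the members. At 0.1 and 15 mg/kg and for 50 against 15 mg/kg, 0 members were called under each setting run. Deviations of same-numbered arrays correlated at -0.36, -0.101, -0.534, 0.496 and -0.0357 for 50 mg/kg and vehicle, at -0.0748, 0.373, -0.0282 and -0.189 for 15 mg/kg and vehicle, and at 0.0478, 0.889, 0.32, 0.359 and 0.261 for 0.1 mg/kg and vehicle, where 0.889 is the pair of replicates 2. In each comparison at least 1 pair was under 0.1, and the block was taken to rest on a shared number only.

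Members whose groups did not overlap, also recomputed after seeing the data, numbered 8 at 50 mg/kg and 8 to 15 with 1 array left out. The 15, without replicate 5 at 50 mg/kg, were 14 wholly higher and 1 wholly lower. Members without overlap numbered 2 at 15 mg/kg, 1 with arrays centred on medians and 2 to 8 with 1 array left out. At 0.1 mg/kg they numbered 0 and 0 to 1, and for 50 against 15 mg/kg 0 and 0 to 4. Leaving out an array can keep or raise these counts but cannot lower them. Over all genes the share wholly higher at 50 mg/kg was 4.35%, and 4.86% to 6.35% with 1 array left out. At 15 mg/kg that share was 1.98%, and 2.6% to 5.56% with 1 array left out. The share wholly lower was 1.48% at 50 mg/kg, and 1.64% to 2.65% with 1 array left out. At 15 mg/kg it was 1.39%, and 1.71% to 2.98%. Shares with 1 array left out are not given here for 0.1 mg/kg or for 50 against 15 mg/kg. Nor are those with arrays centred on medians, so these counts have none beside them. Of the values of single named members under all alternatives, 1911 kept their status as called or not called, 51 lost a call and 9 gained one. In 0 did the sign reverse where either fit made a call. Changes of sign without a call were not counted, such as Psmb8 at 50 mg/kg (-0.18 as reported, 0.006 with the early and late block). The causes of these moves were not tested. Members with low signal, such as Ifit3 (3.76 on vehicle), stand nearest to background.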
